A study of Mus musculus with 18 samples.

Results

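The transcripts of 10 genes of the integrated stress response, Atf4, Atf5, Atf3, Ddit3, Trib3, Ppp1r15a, Asns, Chac1, Gdf15 and Fgf21, were followed in the prostates of mice with altered Elac2, out of 55469 genes in each expression table. They were chosen by name, as genes that ATF4 or its partners are known to control and that are used as readouts of the response to mitochondrial translation defects. Elac2 encodes the ribonuclease that trims the 3′ ends of precursor tRNAs in the nucleus and in mitochondria. The question asked of these genes was whether altered Elac2 goes with a higher level of this response.

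Total RNA of the ventral and lateral prostate lobes was sequenced from male littermate-matched mice of the strain labelled C56NL/6N, without the TRAMP oncogene, at 10 and 30 weeks of age, with 3 libraries in each of 6 groups. WT mice carried ELAC2+/+. KO mice (labelled ELAC2-/-) carried a homozygous Elac2 deletion made in the prostate by Pb-Cre, in which the probasin promoter directs Cre to prostate epithelium, so that other cells of the lobes kept the gene. A537T mice (labelled ELAC2A537T) carried the Ala537Thr exchange in both copies in every tissue. The WT libraries of an age served as controls for both lines, so the KO and A537T comparisons of an age are not independent of each other. At 10 weeks the WT libraries were named 10AF to 12AF, those of KO 13AF to 15AF and those of A537T 16AF to 18AF. At 30 weeks the corresponding names were 1AF to 3AF, 4AF to 6AF and 7AF to 9AF.

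In the integrated stress response, kinases that sense stress phosphorylate the translation initiation factor eIF2α, which lowers general protein synthesis while the mRNA of the transcription factor ATF4 is translated better. ATF4 then binds, with a C/EBP family partner, to composite elements at genes of amino acid supply, of feedback control and of secreted stress signals. Mitochondrial dysfunction in muscle, heart and other tissues is known to raise these genes, among them the hormone genes Gdf15 and Fgf21.

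The letters TGATGNAA, the core of the composite C/EBP-ATF element, were searched on both strands from 250 bases before to 50 bases after each start site in RefSeq (GRCm38.p6). They were present at 5 of the 10 genes, and in 3.97% of all 32851 windows searched. These 5 matches are shown because they are the sequence to which the ATF4 response is tied, with the 8 matching letters in capitals and the flanks in lower case, and a match does not show that the site is bound. Positions are those of the most upstream matching base, counted from the start site.
Atf3, chr1:191183425-191183454, plus strand, at -110: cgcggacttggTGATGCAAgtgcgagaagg
Trib3, chr2:152344028-152344057, plus strand, at 15: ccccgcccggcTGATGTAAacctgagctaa
Asns, chr6:7693214-7693243, minus strand, at -23: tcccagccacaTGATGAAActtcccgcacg
Chac1, chr2:119351038-119351067, minus strand, at -193: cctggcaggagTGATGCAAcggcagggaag
Fgf21, chr7:45615611-45615640, plus strand, at -139: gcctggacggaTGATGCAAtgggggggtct

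Atf3, Chac1 and Fgf21 shared the same 8 letters, whereas Trib3 and Asns each held another base at the open position. No match lay in the windows of Atf4, Atf5, Ddit3, Gdf15 and Ppp1r15a, which says only that these letters are not in those 300 bases.

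Depth ran from 6569642 to 11225281 recovered reads a library (median 8586877), and values below are normalized counts within a table of 6 libraries, except where a level per kb or a log2 value is named. The ventral and lateral lobes were represented by 10 of 10 markers of prostate secretory epithelium that passed the filter, led by Sbp and Spink1, with 0.459 to 14.7% of all normalized counts. Their share moved with the groups, at 3.68, 12.5 and 13.3% in WT and 3.84, 2.55 and 0.459% in KO at 10 weeks, where Sbpl was at 0 in 15AF, and at 7.87 to 10.3% in A537T. In the mutant lines at 30 weeks it was highest in 5AF (14.2%) and 8AF (14.7%), with 4.47 to 7.32% in the other 4 libraries and 7.53 to 14.7% in WT. Markers of other tissues also moved with the groups. All 10 seminal vesicle markers, led by Svs2 and Svs5, passed the filter. At 10 weeks their sum made up 0.000818 to 4.64% of counts in WT, highest in 10AF, compared with 6.56 to 10.3% in KO, while A537T had 0.0375 to 0.192%. At 30 weeks it split each mutant line, with 8.53% in 4AF, 6.32% in 6AF and only 7.13e-05% in 5AF for KO, and with 7.24% in 7AF, 9.17% in 9AF and only 7.99e-05% in 8AF for A537T. WT at this age had at most 0.000353%, with Pax2 at 0. Skeletal muscle markers, led by Ttn and Myh4, made up 3.91 to 12.7% in WT, 0.0585 to 2.05% in KO and, for A537T, 1.55 to 4.36% in the younger mice, and at most 0.0724% in any library at 30 weeks, where Pvalb was at 0 in WT. In whole tissue, fewer cells of a type and less RNA per cell cannot be told apart.

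Elac2 itself was at 124, 142 and 166 in WT and at 119, 111 and 115 in KO at 10 weeks. Every KO library was below every WT library, as held for 14.3% of all genes tested. The log2 fold change was -0.31 ± 0.16 (SE), with a limma adjusted p of 0.325. At 30 weeks Elac2 was at 150, 153 and 194 in WT and at 98.4, 151 and 122 in KO, with a log2 fold change of -0.43 (limma adjusted p = 0.478). These counts cover the whole gene, not the deleted exon, and Elac2 in A537T, whose change is of a single residue, had log2 fold changes of 0.19 at 10 weeks and -0.23 at 30 weeks. The library 5AF had the highest Elac2 of the KO libraries at 30 weeks, at 151, within the range of WT. A537T was split likewise, with 121 in 7AF, 189 in 8AF and 114 in 9AF, where WT was at 147 to 191. In both lines the libraries below WT were those rich in seminal vesicle markers, and the part of that tissue was not tested.

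None of the 10 genes passed an adjusted p of 0.05 in any of the 4 comparisons by limma, and neither edgeR nor DESeq2 on recovered reads called any of them. At 10 weeks the threshold called 0% of all 15089 genes tested for KO and 0% of 15131 for A537T, and at 30 weeks 0% of 14729 for KO and 0% of 14789 for A537T, as did edgeR (0% in each). DESeq2 called 4.74% and 0.595% of all genes for KO and A537T at 10 weeks, then 1.93% and 3.22% at 30 weeks. At an unadjusted p under 0.05, limma counted 2 of the 8 genes that could be tested in KO at 10 weeks (19.4% of all genes), 0 in A537T at 10 weeks (6.43%), 1 in KO at 30 weeks (11% of all genes) and 0 in A537T at 30 weeks (13.6%). In the same order, edgeR counted 1 (18.6% of all genes), 2 (7.27%), 1 (11.9%) and 0 (14.7%), and DESeq2 1 (18.4%), 1 (7.45%), 0 (11.1%) and 0 (13.9%). At 10 weeks the 8 genes had a median log2 fold change of 0.32 for KO and 0.09 for A537T, against -0.01 and 0.01 over all genes tested. At 30 weeks their medians were 0.28 for KO and 0.11 for A537T, against -0.01 and -0.01. Gdf15 and Fgf21 lay below the minimum mean of 10 and were described by their reads.

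**Figure D1:**
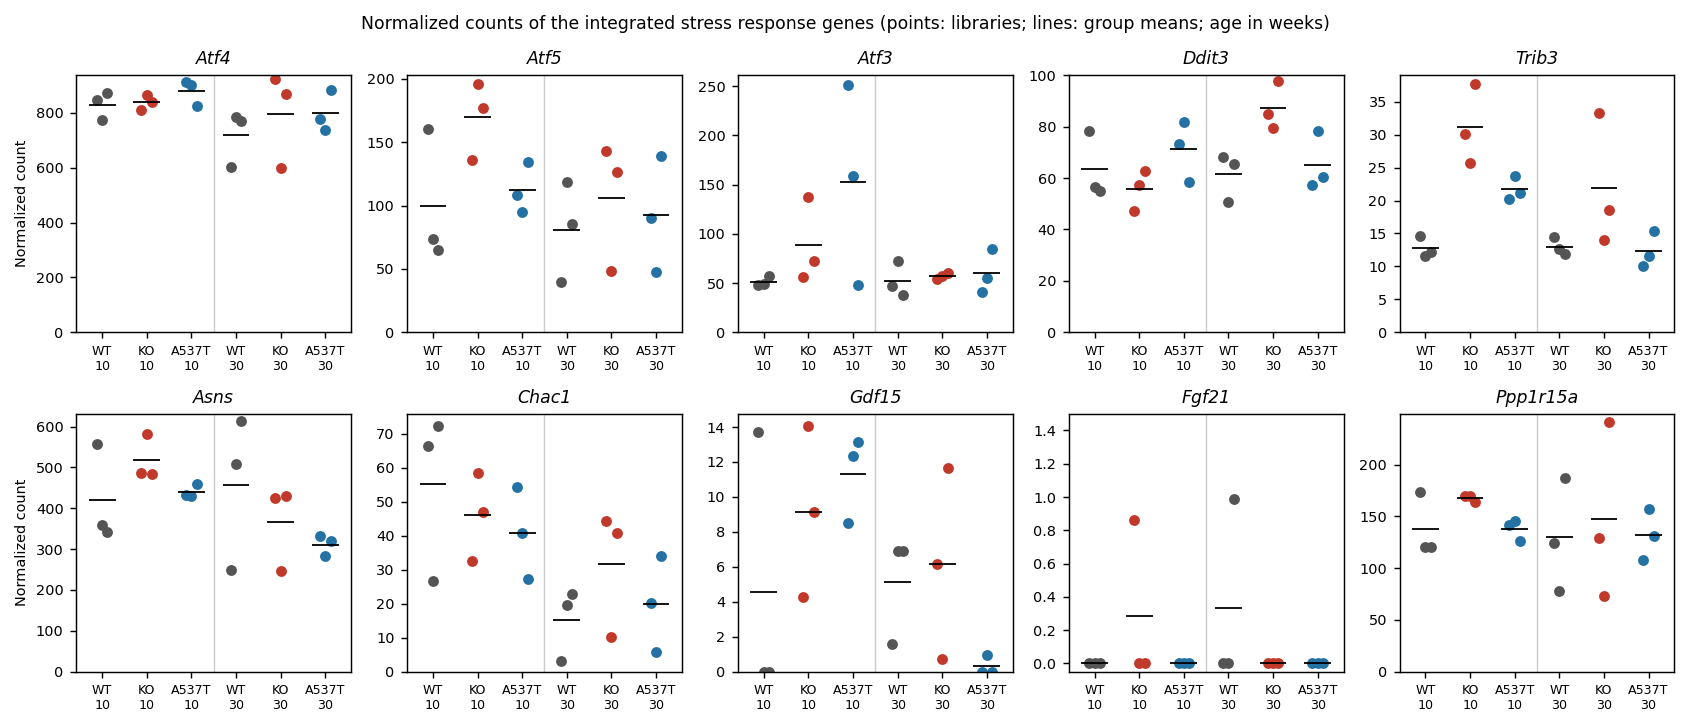
Normalized counts (vertical axes, linear) of the 10 genes in each of the 18 libraries, by genotype and age in weeks; points are libraries and horizontal lines group means, with WT shown as scaled in the KO tables. Trib3 was higher in all 3 KO and all 3 A537T libraries than in any WT library at 10 weeks, Ddit3 in all 3 KO libraries at 30 weeks, and Fgf21 was at or near 0 throughout.

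Among the transcription factors, Atf4, the central activator of the response, was the most abundant of the 10 transcripts per length of transcript. It was at 844, 773 and 870 in WT and at 811, 864 and 840 in KO at 10 weeks, so that all 3 KO libraries lay within the range of WT. This gave a log2 fold change of 0.02 with a 95% interval from -0.24 to 0.28 (limma adjusted p = 0.938). In A537T at 10 weeks Atf4 was at 912, 899 and 825, with a log2 fold change of 0.06 and an interval from -0.23 to 0.34 (limma adjusted p = 0.925). At 30 weeks the spread was wider, with 601, 783 and 769 in WT, 922, 597 and 867 in KO and 775, 738 and 881 in A537T. The groups overlapped, and the log2 fold changes were 0.13 (interval -0.33 to 0.59) in KO and 0.15 (interval -0.17 to 0.48) in A537T. Because ATF4 is controlled mainly through translation, the level of its mRNA does not measure the level of the protein.

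Atf5, a related factor whose mRNA is also translated under eIF2α phosphorylation, was at 160, 73.3 and 65.3 in WT and at 136, 196 and 177 in KO at 10 weeks. KO libraries 14AF and 15AF exceeded every WT library, whereas 13AF was below 10AF. Its log2 fold change, 0.86 ± 0.36 (SE) with an interval from 0.02 to 1.71, did not pass (limma adjusted p = 0.251). Without 10AF, the WT library with the most seminal vesicle markers (4.64%), it was 1.26 and passed (limma adjusted p = 0.0226), as did 18.8% of all genes in that fit. With all libraries and a seminal vesicle score as covariate it was 0.56 (limma adjusted p = 0.874). With a skeletal muscle score instead it was 0.87 (limma adjusted p = 0.9996). In A537T at 10 weeks Atf5 was at 109, 95.1 and 134, inside the range of WT, with a log2 fold change of 0.28 (limma adjusted p = 0.864). At 30 weeks it was at 39.4, 119 and 85.1 in WT, at 143, 48.5 and 127 in KO and at 90.4, 47.2 and 139 in A537T. The lowest library of each mutant line was the one almost free of seminal vesicle markers, 5AF in KO and 8AF in A537T. WT libraries, all almost free of them, still ran from 39.4 in 1AF to 119 in 2AF. At this age 1AF, 5AF and 8AF had the highest shares of prostate secretory markers. The log2 fold changes of 0.37 and 0.17 became -0.43 and -0.51 once a seminal vesicle score entered the fit as covariate. Of the mutant libraries only 5AF and 8AF had as few of these markers as WT. Score and genotype were thus nearly inseparable, and these values rest mainly on those libraries.

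Atf3, a factor induced by ATF4 and by many other acute stimuli, differed widely among libraries of a group at 10 weeks. At 10 weeks it was at 47.9, 49.1 and 57.1 in WT, at 55.8, 137 and 72.0 in KO and at 251, 159 and 48.4 in A537T. The KO library 14AF and the A537T libraries 16AF and 17AF stood above the rest, while 18AF lay below every WT library of its own table. On the log2 scale KO differed from WT by 0.67 (interval -0.14 to 1.48, limma adjusted p = 0.315) and A537T by 1.23 (interval -0.07 to 2.53, limma adjusted p = 0.746). Without 16AF the value in A537T was 0.73, and without 14AF that in KO was 0.30. With the skeletal muscle score as covariate KO had 1.61 (limma adjusted p = 0.9996) and A537T 2.22 (limma adjusted p = 0.737). With the seminal vesicle score these were 0.81 and 1.32. At 30 weeks Atf3 was at 46.6, 72.6 and 37.6 in WT, 54.1, 57.3 and 60.5 in KO and 41.2, 54.9 and 84.3 in A537T, with log2 fold changes of 0.18 and 0.19 and overlapping groups.

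The 15 immediate early genes, which respond within minutes to acute stimuli and of which 14 were tested at 10 weeks, had median log2 fold changes of 0.62 in A537T and 0.06 in KO. In A537T, 3 of the 14 were higher in every mutant library than in any WT library (5.58% of all genes) and 5 had an unadjusted p under 0.05 (6.43% of all genes), none of them past the adjusted threshold. The 3 most abundant had log2 fold changes in KO of 0.16 for Klf6, -0.47 for Btg2 and -0.33 for Jun. Their summed share was 0.0369, 0.0381 and 0.0414% in 16AF, 17AF and 18AF and 0.0193 to 0.0321% in WT, so 18AF, where Atf3 was low, had the highest share. Their part in the value of Atf3 was not tested.

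Ddit3, which encodes the proapoptotic factor CHOP, stood out in another comparison than Atf5. At 10 weeks it was at 78.3, 56.6 and 55.1 in WT, 47.3, 57.4 and 62.9 in KO and 73.4, 81.8 and 58.5 in A537T. All groups overlapped, with log2 fold changes of -0.17 in KO (limma adjusted p = 0.692) and 0.13 in A537T (limma adjusted p = 0.911). At 30 weeks it was at 68.4, 50.7 and 65.3 in WT and at 84.9, 79.3 and 97.7 in KO, so that every KO library exceeded every WT library, as did 7.92% of all genes tested. The mean was 61.5 ± 9.45 in WT and 87.3 ± 9.44 in KO (SD, n = 3), a ratio of 1.42. The log2 fold change of 0.51 ± 0.19 (SE), interval 0.06 to 0.95, did not pass (limma adjusted p = 0.429). With a seminal vesicle score as covariate the log2 fold change was 0.36 (limma adjusted p = 0.907), a value that rests mainly on 5AF. Library 5AF, with almost no seminal vesicle markers, was at 79.3, and the part of that tissue in the difference was not tested. In A537T at 30 weeks Ddit3 was at 57.3, 78.1 and 60.2, with a log2 fold change of 0.07 (limma adjusted p = 0.897). A second gene model with the symbol Ddit3 overlaps the same locus and had no counts in any library.

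Among the feedback regulators, Trib3, a pseudokinase that ATF4 and CHOP induce and that restrains them and 1 of the 5 genes with the element TGATGNAA, had the largest log2 fold change of the 8 tested genes in KO at 10 weeks. Its counts were 14.7, 11.7 and 12.2 in WT and 30.1, 25.8 and 37.7 in KO, with a gap between the highest WT and the lowest KO library. The mean was 12.9 ± 1.60 in WT and 31.2 ± 6.06 in KO (SD, n = 3), a ratio of 2.43. The log2 fold change was 1.21 ± 0.30 (SE), interval 0.49 to 1.92 (limma adjusted p = 0.183), and over all alternatives and left-out libraries it ranged from 0.81 to 1.41.

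In A537T at 10 weeks Trib3 was at 20.2, 23.8 and 21.2, again above every WT library, with a ratio of means of 1.69. Its log2 fold change of 0.72, interval -0.04 to 1.48 (limma adjusted p = 0.746), ranged from 0.51 to 0.85 over the same alternatives. Trib3 was the only one of the 10 genes without overlap in the higher direction in either line at 10 weeks, a pattern held by 11.7% of all genes tested in KO and 5.58% in A537T. Seminal vesicle markers differed between these lines, at 6.56 to 10.3% in KO and at most 0.192% in A537T, whereas skeletal muscle markers were lower than the WT mean in both. Adding the skeletal muscle score to the fit gave Trib3 a log2 fold change of 0.81 in KO and 0.66 in A537T, and adding that of the seminal vesicle instead gave 1.17 and 0.71.

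At 30 weeks Trib3 was at 14.5, 12.7 and 11.9 in WT, 33.2, 13.95 and 18.6 in KO and 10.0, 11.6 and 15.3 in A537T. Library 4AF stood apart in KO, and 5AF lay within WT. The log2 fold change was 0.63 (interval -0.33 to 1.58) in KO and -0.18 (interval -1.06 to 0.70) in A537T, neither past the threshold. Without 4AF the value in KO was 0.29.

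Ppp1r15a encodes GADD34, the subunit that directs a phosphatase to eIF2α and so ends the response. At 10 weeks it was at 173, 121 and 120 in WT, 169, 170 and 163 in KO and 142, 146 and 126 in A537T. The 3 KO libraries were close to each other and to 10AF, and above the other WT libraries. The log2 fold change was 0.30 in KO (interval -0.14 to 0.73, limma adjusted p = 0.386) and 0.01 in A537T (limma adjusted p = 0.992). At 30 weeks the libraries of each group spread widely, with 125, 78.3 and 187 in WT, 129, 73.4 and 241 in KO and 107, 157 and 131 in A537T, and log2 fold changes of 0.11 and 0.07.

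**Figure D2:**
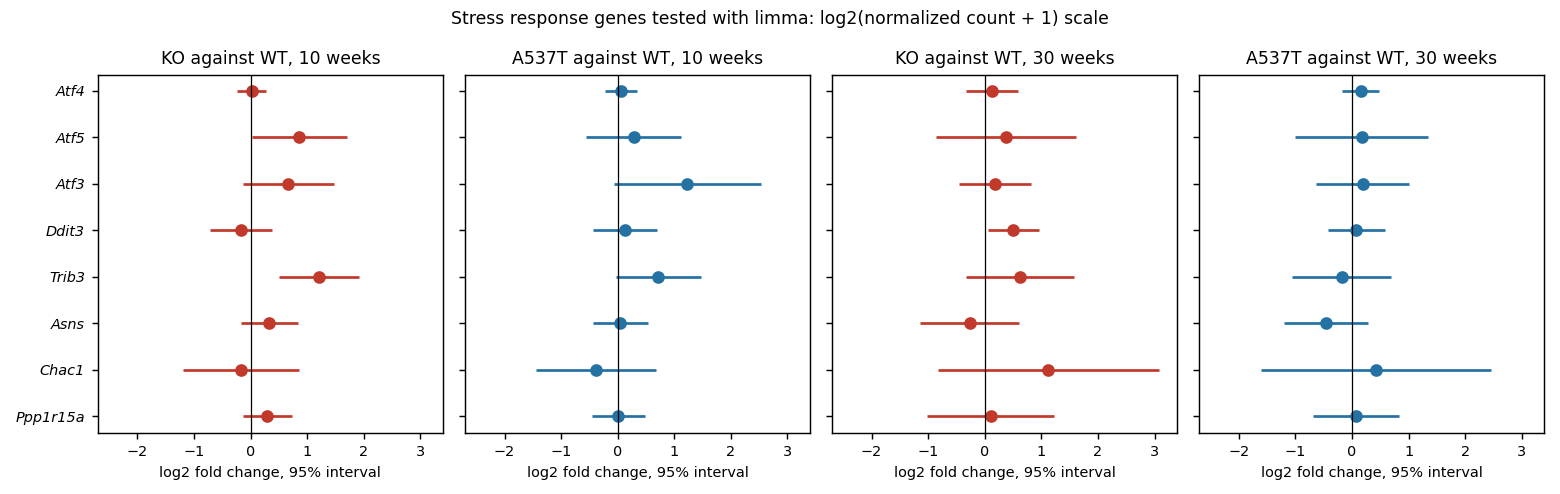
Log2 fold changes (horizontal axes) of the 8 tested genes against WT in the 4 comparisons; points are limma estimates on log2(normalized count + 1) and bars 95% intervals without adjustment over genes. The intervals of Atf5 and Trib3 in KO at 10 weeks and of Ddit3 in KO at 30 weeks lie above 0, while those of Atf4 all span 0.

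Among the enzymes, Asns, asparagine synthetase, with its element at -23, was at 558, 358 and 342 in WT and at 486, 582 and 484 in KO at 10 weeks. Only 14AF exceeded every WT library, and the log2 fold change was 0.33 (interval -0.17 to 0.83, limma adjusted p = 0.397). Without 10AF, whose Asns was the highest of WT, it was 0.56 and passed (limma adjusted p = 0.0377), again among 18.8% of all genes. With all libraries and the seminal vesicle score as covariate it was 0.18 (limma adjusted p = 0.922). The skeletal muscle score gave 0.43 (limma adjusted p = 0.9996). In A537T at 10 weeks Asns was at 432, 430 and 459, within WT, with a log2 fold change of 0.05 (interval -0.44 to 0.54). At 30 weeks Asns was at 250, 509 and 613 in WT, 426, 245 and 429 in KO and 331, 282 and 319 in A537T. The estimates there were negative, -0.27 (interval -1.14 to 0.61) in KO and -0.46 (interval -1.19 to 0.28) in A537T, with overlapping groups.

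Chac1, which degrades glutathione, was at 66.5, 26.7 and 72.4 in WT, 32.6, 58.5 and 46.9 in KO and, for A537T, 54.3, 40.9 and 27.2 at 10 weeks. Both mutant groups lay within the range of WT, and the log2 fold changes were -0.17 (interval -1.20 to 0.85) and -0.38 (interval -1.44 to 0.68). At 30 weeks Chac1 was at 3.2, 19.6 and 22.8 in WT, 44.3, 10.3 and 40.7 in KO and 20.1, 5.8 and 34.0 in A537T. As with Atf5, the lowest libraries of the mutant lines were 5AF and 8AF, and the lowest of WT was 1AF. The log2 fold changes were 1.12 (interval -0.84 to 3.08, limma adjusted p = 0.632) and 0.43 (interval -1.60 to 2.46, limma adjusted p = 0.842). With the seminal vesicle score as covariate they were 0.07 and -0.67, values that rest mainly on 5AF and 8AF.

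The secreted factors were scarce. Gdf15, a stress cytokine that acts on the brainstem, was at 13.7, 0 and 0 in WT, 4.3, 14.1 and 9.1 in KO and 8.5, 12.4 and 13.1 in A537T at 10 weeks. The only WT library with Gdf15 reads was 10AF, and exact permutation tests of the difference of means gave a two-sided p of 0.5 in KO and 0.4 in A537T. At 30 weeks it was at 1.6, 6.9 and 6.9 in WT, 6.1, 0.7 and 11.6 in KO and 0, 1.0 and 0 in A537T. All 3 A537T libraries, with 0 to 1 reads, were below the WT libraries, with 2 to 7 reads. The same held for 9.4% of all genes tested there, a share over genes past the filter, which Gdf15 did not pass. The two-sided exact permutation p was 0.1, the smallest that 20 arrangements allow, and it was 1.0 in KO. Fgf21, a hormone of energy balance, had at most 1 read in any library, in 13AF and 3AF, so that no difference was detectable at this depth.

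**Figure D3:**
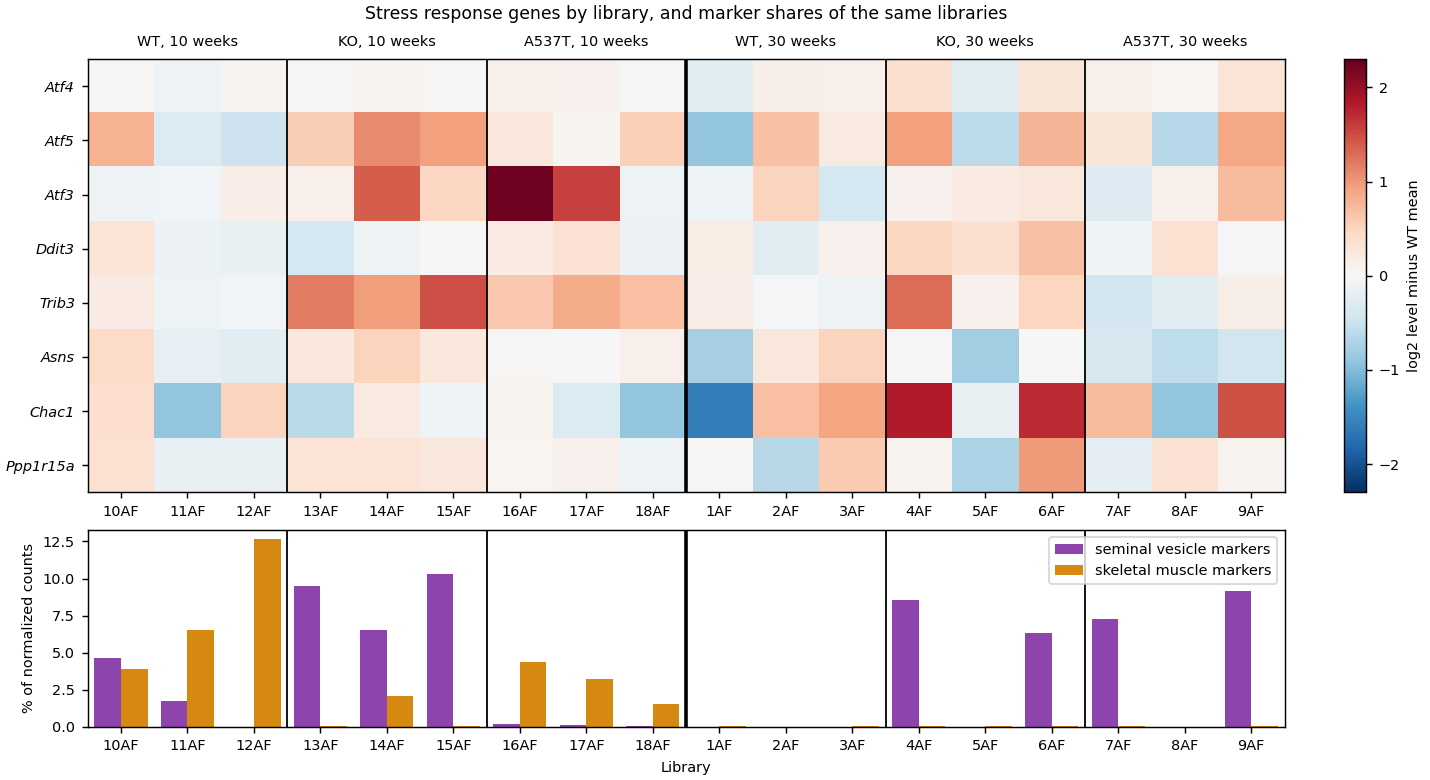
Upper part, level of the 8 tested genes in each of the 18 libraries as log2(normalized count + 1) minus the mean of the WT libraries of the same table (red above, blue below); lower part, share of normalized counts in percent taken by seminal vesicle and skeletal muscle markers in the same libraries. Trib3 is above the WT mean in all 6 mutant libraries at 10 weeks. In 5AF and 8AF, where seminal vesicle markers were near 0, Atf5 and Chac1 are below the WT mean, as they are in the WT library 1AF.

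Over length, with the merged exons of each gene as its length, the transcripts spanned a wide range of abundance in WT at 10 weeks. Atf4 had 352 ± 21.4 normalized counts per kb (SD, n = 3), followed by Asns at 153 ± 43.9. Atf5 at 50.0 ± 26.5, Ppp1r15a at 47.0 ± 10.3, Ddit3 at 37.0 ± 7.56 and Chac1 at 33.7 ± 15.2 per kb were neighbours whose SDs overlapped. Below them were Atf3 at 23.9 ± 2.32, Trib3 at 6.05 ± 0.75 and Gdf15 at 2.47 ± 4.27 per kb, and Fgf21 was at 0. In KO at 10 weeks Trib3, at 14.7 ± 2.85 per kb, still was the least abundant of the 8 tested genes.

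The change of the effect with age was tested as the log2 fold change at 30 weeks minus that at 10 weeks. None of the 8 genes passed an adjusted p of 0.05 by limma in either line, nor did any of the 14295 and 14292 genes tested in KO and A537T (0% in each). At an unadjusted p under 0.05, with 1724 genes (12.1% of all tested) in each line, there were Ddit3 in KO, with a difference of 0.68 (interval 0.05 to 1.31, limma adjusted p = 0.380), and Trib3 in A537T, with -0.90 (limma adjusted p = 0.410). For Trib3 in KO the difference was -0.58 (limma adjusted p = 0.668), and for Atf4 it was 0.12 in KO and 0.10 in A537T.

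Over the 18 libraries, each set against the mean of WT in its table, Chac1 followed Atf4 most closely among the 7 other genes past the filter, with a Pearson r of 0.848, followed by Atf5 at 0.644. The values were 0.393 for Ppp1r15a, 0.349 for Asns, 0.222 for Ddit3, 0.206 for Atf3 and 0.185 for Trib3, so Trib3, with the largest estimate in KO at 10 weeks, was the one least like Atf4 of those 7. Among 14067 genes the most like Atf4 were Ank1 (0.874), Slc38a2 (0.868), Zfp366 (0.852), Lum (0.850) and Atp2a2 (0.848). These are descriptions over libraries that share groups, tissue composition and WT means. Slc38a2, an amino acid transporter, is among the other ATF4 targets examined.

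The wider pathway was examined with 32 other ATF4 targets, most of which make or import amino acids or charge tRNAs, with a few regulators and secreted proteins such as Nupr1, Sesn2, Ddit4 and Stc2. None passed in any comparison by limma. In KO at 10 weeks 23 had a positive and 9 a negative estimate, with a median log2 fold change of 0.22, and 11 were higher in every KO library than in any WT library, against 5 lower, where 11.7% and 14.3% of all genes tested did so. At an unadjusted p under 0.05 there were 10 higher and 3 lower, with 19.4% of all genes in either direction. Named for their values, the 11 higher were Slc7a11, Psat1, Slc7a5, Mthfd2, Shmt2, Slc7a1, Slc3a2, Sesn2, Pck2, Aldh18a1 and Nars. The 5 lower were Vldlr, Pycr1, Eif4ebp1, Eprs and Aars. The extreme log2 fold changes were 2.25 for Slc7a11 and -1.96 for Vldlr (limma adjusted p = 0.183 for each). The part of tissue composition in these values was not tested. The 3 most abundant of the 32 did not share a direction. Wars, the tryptophanyl-tRNA synthetase, had a log2 fold change of 0.54 (limma adjusted p = 0.386), Eprs, which charges glutamate and proline tRNAs, -0.27 (limma adjusted p = 0.342), and Nupr1, a stress-induced chromatin protein, -1.84 (limma adjusted p = 0.269). In A537T at 10 weeks the median was -0.07, with 2 of the 32 genes higher and 2 lower without overlap (5.58% and 6.34% of all genes). At 30 weeks the medians were 0.03 in KO, with 0 higher and 2 lower (7.92% and 8.41% of all genes), and -0.04 in A537T, with 2 higher and 5 lower (9.18% and 9.4% of all genes).

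The 16 genes upstream of ATF4 (the eIF2α kinases, eIF2 and eIF2B subunits, the mitochondrial relay of Dele1 and Oma1, and phosphatase subunits) had medians of -0.20 and -0.08 at 10 weeks and -0.05 and 0.02 at 30 weeks in KO and A537T. Of these, Eif2ak3, the kinase PERK, was at 482 in WT and 468 in KO at 10 weeks, with a log2 fold change of -0.04 (limma adjusted p = 0.879). Ppp1r15b, the constitutive counterpart of Ppp1r15a, had 0.08 and the catalytic subunit Ppp1ca -0.30. The 6 tested of 8 C/EBP and other bZIP partners had medians of -0.14 for KO and 0.03 for A537T at 10 weeks, then 0.30 for KO and, over 5 tested, 0.32 for A537T at 30 weeks. In KO at 10 weeks the log2 fold change was 0.25 for Cebpg, 0.06 for Nfe2l2 and -0.39 for Maf. The 12 genes of the mitochondrial unfolded protein response, chaperones and proteases of the organelle, had medians of -0.25, -0.19, -0.03 and 0.02 in KO and A537T at 10 weeks and then at 30 weeks, with Hspa9 at -0.35, Hspd1 at -0.23 and Yme1l1 at -0.03 in KO at 10 weeks, and none of the genes of these 3 lists passed.

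Also examined were the 19 targets of ATF6 and XBP1, which form the other arms of the response to unfolded protein in the endoplasmic reticulum. Their list medians were of opposite sign at the 2 ages, but not every gene followed its list. In the younger mice the median over the list was 0.48 in KO and 0.60 in A537T, and 11 and 13 of them were higher in every mutant than in any WT library (11.7% and 5.58% of all genes). At 30 weeks the medians were -0.40 in KO and -0.44 in A537T, and 12 and 10 were lower without overlap (8.41% and 9.4% of all genes). Their summed share at 30 weeks was 0.652 to 0.738% in WT, 0.453 to 0.528% in the 4 mutant libraries rich in seminal vesicle markers (4AF, 6AF, 7AF and 9AF), and 0.600% in 5AF and 0.663% in 8AF. In the younger mice it was 0.3498 to 0.560% in WT, lowest in 12AF, which had the most skeletal muscle markers, 0.703 to 0.879% in KO and 0.773 to 0.880% in A537T. The part of these tissues in this summed share was not tested. Only the 3 most abundant genes of the list were also fitted with the marker scores as covariates. No gene of the list passed with limma. Hspa5, the chaperone BiP, had means of 7369 ± 544 in WT and 10580 ± 1576 in KO at 10 weeks (SD, n = 3), with a log2 fold change of 0.51 (limma adjusted p = 0.204) and of 0.84 in A537T (limma adjusted p = 0.746). At 30 weeks its values were -0.31 in KO and -0.26 in A537T, the latter changing sign with the seminal vesicle score as covariate. Hsp90b1, the chaperone GRP94, had 0.98 and 0.88 at 10 weeks and -0.41 and -0.57 at 30 weeks, and Calr, calreticulin, 0.33 and 0.44, then -0.36 and -0.47. The difference between the ages was not tested for this list, and the lines share their WT libraries. The 6 heat shock genes had medians of 0.15 for KO and 0.72 for A537T at 10 weeks, then -0.30 and 0.05 at 30 weeks, with Hsp90aa1 at 0.19, Hsph1 at 0.84 and Hspb1 at -0.26 in KO at 10 weeks.

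**Figure D4:**
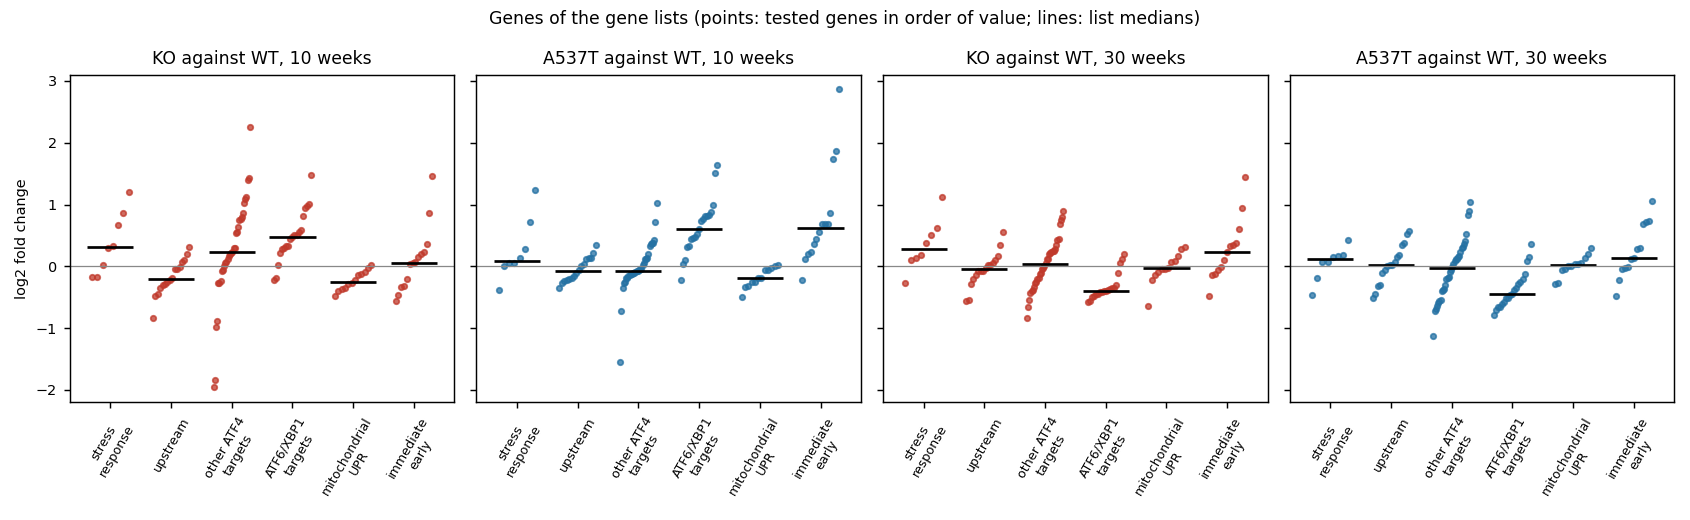
Log2 fold changes (vertical axis) of the tested genes of 6 lists against WT in the 4 comparisons; points are genes in order of their value within a list and black lines are list medians. The ATF6 and XBP1 targets have medians of 0.48 and 0.60 at 10 weeks and -0.40 and -0.44 at 30 weeks, whereas the medians of the 8 tested stress response genes lie between 0.09 and 0.32.

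Markers of immune cells also moved with a group at 30 weeks. All 9 macrophage markers, led by Lyz2 and Mrc1, had positive estimates in A537T, with a summed share of 0.0176 to 0.0381% against 0.0110 to 0.0137% in WT, and the plasma and B cell markers, led by Ighm and Igkc, took 0.0228 to 0.104% against 0.00675 to 0.0113%. Of the 10 genes, the difference without overlap in that comparison was that of Gdf15, which was lower, and the part of these cells in it was not tested. Smooth muscle markers, led by Myh11 and Acta2, took 0.393 to 0.529% in KO and 0.152 to 0.489% in WT at 10 weeks, and adipocyte markers, led by Cfd and Fabp4, 0.0119 to 0.0371% and 0.0286 to 0.0453%.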

How the data were processed

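RNA sequencing of 18 prostate libraries (WT, KO and A537T at 10 and 30 weeks) was analysed. The authors trimmed reads with Trim Galore 0.4.1 and cutadapt 1.18, aligned them with STAR 2.7.3a to GRCm38.p6, quantified them with Salmon and normalized them with DESeq2 1.26. The signal values deposited by the authors are normalized counts, gene counts divided by a size factor per library, in 4 tables of 6 libraries. Columns carry library labels without replicate numbers, and were assigned to groups through the WT libraries that tables of an age share and through the mean counts of the named sheets of the supplementary data. Deposited fold changes and p-values were not used. Tables were scaled separately, so tests were made within a table.

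Testing was limited to genes whose mean normalized count reached 10 in a table, on the scale of log2(normalized count + 1), which understates changes of low genes, with limma 3.58.1 in R 4.3.3 (lmFit, eBayes with a mean trend), with Benjamini-Hochberg adjustment over all genes and a threshold of 0.05. Changes of the effect with age were tested as a contrast over both tables of a line. For Gdf15 and Fgf21 exact permutation tests were used, in which 3 against 3 libraries cannot give a p under 0.1. At least 99.991% of values were within 0.1 of a whole number of recovered reads, but 4 columns had a size factor too close to 1 for the formal check of these steps. Recovered reads of a WT library differed between its 2 tables for 53.6 to 64.1% of genes, with a median absolute log2 difference of at most 0.020. Recovered reads are therefore whole numbers that hold within a table, not exact counts of sequenced reads.

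Alternatives were pseudocount 8, no filter, a minimum mean of 100, scaling to the same total, quantile normalization, edgeR 4.0.16 (quasi-likelihood) and DESeq2 1.42.0 on recovered reads, no mean trend, a skeletal muscle score (10 weeks) or seminal vesicle score (30 weeks) as covariate, and leaving out each library. The seminal vesicle covariate at 10 weeks was added after the data were seen. In the younger mice the shares of both marker lists separated KO from WT without overlap. At 30 weeks only 5AF and 8AF among mutant libraries had as few seminal vesicle markers as WT. In these fits score and genotype are nearly confounded, so their values cannot be read as effects freed of tissue composition. The 10 genes and all gene lists were chosen with earlier results of these data known. Named from each list other than cell markers were its 3 most abundant genes (2 for markers). From the other ATF4 targets, those without overlap in KO at 10 weeks were named as well, chosen by their values. The genes most like Atf4 were the 5 with the highest Pearson r. The fits were tested on simulated data. Gene coordinates and lengths came from GENCODE M21, whose IDs matched 55107 of 55469 genes, versions ignored. Figures were made with matplotlib 3.10.9. The TRAMP lines were not analysed here.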

Additional observations from a re-analysis of the deposited data

How the results depend on the processing

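Of 1195 results recomputed under alternatives, 1089 kept their direction and side of the threshold or stayed within the spread, 62 changed sign, 30 moved and 14 passed the threshold newly. The number of the 10 genes past the threshold was 0 in every comparison and alternative, except that without WT library 10AF 3 passed in KO at 10 weeks (leave-one-out range 0 to 3), where 2840 of all genes then passed. These were Atf5, Trib3 (1.30, limma adjusted p = 0.0402) and Asns. DESeq2 on recovered reads called 715, 90, 285 and 476 genes in KO and A537T at 10 weeks and at 30 weeks, none of them among the 10, and edgeR called 0. At 30 weeks limma called 936 genes for KO when 5AF was left out and 1207 for A537T when 8AF was, again none of the 10. The difference between ages had 0 calls among the 8 tested genes with pseudocount 8, scaling to the same total and each library left out, the alternatives run for it. No paired analysis was possible because the columns carry no replicate numbers.

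Scaling to the same total moved the median of all genes to 0.20 in KO and 0.15 in A537T at 10 weeks. It turned the log2 fold change in KO at 10 weeks to 0.038 for Ddit3, 0.036 for Chac1, 0.17 for Eif2ak3 and 0.18 for Yme1l1, each below that median. Quantile normalization gave 0.043 for Eif2ak3 and 0.041 for Yme1l1 there, and -0.061 for Ddit3 in A537T at 30 weeks. Ppp1r15a in A537T was -0.010 with edgeR and -0.0054 with DESeq2 at 10 weeks and -0.0023 with edgeR at 30 weeks.

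With the skeletal muscle score, KO at 10 weeks gave 0.30 for Chac1, -0.12 for Nfe2l2, 0.056 for Nupr1, 0.35 for Btg2, 0.15 for Jun and 0.17 for Hspb1, and A537T at 10 weeks -0.38 for Atf5, -0.28 for Asns, 0.073 for Chac1 and -0.12 for Ppp1r15a. With the seminal vesicle score, KO at 10 weeks gave 0.33 for Chac1, -0.046 for Wars, 0.032 for Jun and 0.073 for Hspb1, KO at 30 weeks -0.20 for Atf4, -0.43 for Atf5 and -0.68 for Ppp1r15a, and A537T at 30 weeks -0.51 for Atf5, -0.67 for Chac1, 0.029 for Hspa5 and 0.20 for Elac2. The cause was not tested.

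Leaving out single libraries turned signs within these ranges. In KO at 10 weeks they were -0.032 to 0.053 for Atf4, -0.62 to 0.083 for Chac1, -0.00105 to 0.12 for Ppp1r15b, -0.14 to 0.039 for Eif2ak3 and -0.10 to 0.023 for Yme1l1, and in A537T at 10 weeks -0.084 to 0.28 for Asns and -0.078 to 0.19 for Ppp1r15a. In KO at 30 weeks they were -0.068 to 0.86 for Atf5, -0.024 to 0.44 for Atf3 and -0.33 to 0.52 for Ppp1r15a. In A537T at 30 weeks they were -0.27 to 0.58 for Atf5, -0.084 to 0.45 for Atf3, -0.065 to 0.16 for Ddit3, -0.37 to 1.10 for Chac1 and -0.25 to 0.38 for Ppp1r15a.

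With 3 libraries a group, limma p-values set a group difference against the spread between these samples, moderated over all genes. They do not separate genotype from the tissue markers that also differed between groups. Gdf15 and Fgf21 lay at 0 to 14 reads, where depth limits any comparison.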
